A study of Mus musculus with 8 samples.

Results

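Foxf1, Foxf2, Foxl1, Tshz2, Tshz3, Tbx18 and Bmp4 are genes of Hedgehog-responsive mesenchyme of the ureter and other urogenital organs. They were examined here in sorted nephron progenitors that differ in Smo, to see whether an active Smo switches them on in a cell type that forms nephrons. The 7 genes were taken by symbol from a table of 24539 genes, and all 7 were found. The set was chosen by its measured counts in the SmoM2- and WT-labelled libraries, among other results known at the time, so that change is described without a test.

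RNA was sequenced from mouse kidney cells at E18.5, sorted for green fluorescence from Six2GFPcre, which puts GFP and Cre under control of Six2 in nephron progenitors. All 8 libraries carry Six2GFPcre, and there are 2 for each of 4 genotypes. The KO-labelled group is Smo c/c with 2 conditional alleles, the Het-labelled group Smo c/+ with 1 conditional and 1 wild-type allele, and the WT-labelled group Smo +/+. The SmoM2-labelled group is Rosa26 SmoM2/+ on a Smo +/+ background, so Cre from the Six2 transgene turns on an active Smo in addition to 2 wild-type alleles. The labels do not say how many embryos went into a library, so p-values measure only the spread between these libraries.

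In Hedgehog signalling, a ligand binds the receptor Ptch1, which frees Smo to act, and the Gli factors then change transcription in the nucleus. In the embryonic ureter, Hedgehog ligand from the epithelium acts on the mesenchyme around it. There Foxf1 and Bmp4 take part in the response, Tbx18 sets up the mesenchyme and Tshz3 is needed for its smooth muscle.

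The listed counts per library ranged from 4422305 to 10305398, and the KO-labelled libraries were the shallowest. Smo itself had 51 to 141 counts in each KO- or Het-labelled library and 3442 to 5915 in each of the others. The Het-labelled libraries, at 14.4 and 23.9 CPM (counts scaled to the size of the library), thus lay near the KO-labelled ones at 13.1 and 11.1, against their label. The WT-labelled libraries lay at 363 and 374 CPM. Groups are therefore named by label throughout. Xist and Y-linked counts showed male KO-labelled and female Het-labelled libraries, and 1 of each pattern in the other groups, so sex and genotype cannot be told apart between KO and Het. By a chi-square of counts per degree of freedom, KO- differed from Het-labelled libraries by 17.8 to 24.3 and WT- from SmoM2-labelled ones by 8.52 to 19.9. Replicates differed by 5.39 to 13.6, so part of the WT to SmoM2 range was no larger than between WT-labelled replicates (13.6), which differ in sex. Across the 2 sides, KO- and Het-labelled against WT- and SmoM2-labelled, it was 26.1 to 51.1. Any batch between the sides cannot be told apart from genotype. This chi-square grows with depth, so its values for shallow and deep libraries are not directly comparable. Six2, which marks the sorted cells, was at 1131 to 2103 CPM in all 8 libraries.

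The 7 genes lie on 6 chromosomes of mm10, the build that the submitters' processing notes name. All positions are those of RefSeq on GRCm38, the same assembly. Foxf1 (chr8:121084386-121088154) and Foxl1 (chr8:121127685-121130644) share a cluster, with 39.5 kb between them. Foxf2 is at chr13:31625816-31631406, Tshz3 at chr7:36698118-36773553 and Tshz2 at chr2:169632509-170072751. Tbx18 is at chr9:87702800-87731260 and Bmp4 at chr14:46383525-46390669. All are protein-coding.

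RefSeq start sites were matched for 5 of the 7 genes, all but Foxf1 and Foxl1. The 250 bases before the start are shown for 4 of them, chosen to cover different patterns across the labelled genotypes. Foxf2 and Tshz3 were highest in the SmoM2-labelled libraries, Tshz2 was high in every library, and Bmp4 was highest in the KO-labelled ones. The sequences run 5′ to 3′ on the gene's own strand, and capitals mark each CpG, the dinucleotide where DNA is methylated. Foxf2 covers chr13:31625566-31625815 on the plus strand, Tshz3 chr7:36697868-36698117 plus, Tshz2 chr2:169632259-169632508 plus and Bmp4 chr14:46390670-46390919 minus.
Foxf2: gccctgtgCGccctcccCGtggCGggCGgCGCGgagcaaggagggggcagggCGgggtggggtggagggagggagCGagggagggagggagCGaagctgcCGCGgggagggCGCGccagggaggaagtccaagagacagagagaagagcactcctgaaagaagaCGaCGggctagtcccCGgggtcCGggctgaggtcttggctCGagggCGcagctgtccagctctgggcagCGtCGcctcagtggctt
Tshz3: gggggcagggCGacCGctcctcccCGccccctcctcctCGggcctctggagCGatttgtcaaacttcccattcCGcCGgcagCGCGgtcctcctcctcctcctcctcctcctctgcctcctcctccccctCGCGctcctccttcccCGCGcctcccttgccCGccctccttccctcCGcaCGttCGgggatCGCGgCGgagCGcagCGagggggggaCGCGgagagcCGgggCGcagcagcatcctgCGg
Tshz2: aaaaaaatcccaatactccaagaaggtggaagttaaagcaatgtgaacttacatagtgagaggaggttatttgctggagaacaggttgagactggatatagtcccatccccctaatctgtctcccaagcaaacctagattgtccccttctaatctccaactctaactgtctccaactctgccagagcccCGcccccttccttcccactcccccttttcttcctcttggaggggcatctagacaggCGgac
Bmp4: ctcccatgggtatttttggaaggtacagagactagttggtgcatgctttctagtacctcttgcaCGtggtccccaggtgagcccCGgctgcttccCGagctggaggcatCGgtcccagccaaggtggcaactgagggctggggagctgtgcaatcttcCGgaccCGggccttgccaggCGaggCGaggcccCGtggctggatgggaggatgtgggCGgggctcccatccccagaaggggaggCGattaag
Foxf2 holds 21 CpGs in this window and Tshz3 holds 27, with GC contents of 71.6% and 74.0%. Bmp4 holds 11 (63.2% GC), Tbx18 15 (54.0% GC) and Tshz2 only 2 (48.8% GC). The median of 32851 mouse promoter windows of this length is 6 CpGs and 52.4% GC. Both strands were searched for GACCACCCA, the consensus that Gli factors bind, and for its inner part CCACCCA, so every match to the first is also a match to the second. Neither was found in the 5 windows. The first is in 0.225% and the second in 8.11% of all windows of this length. The GC box GGGCGG, which overlaps CpGs, was found in Foxf2, Tshz3, Tshz2 and Bmp4 but not in Tbx18, and 32.7% of all windows hold it.

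Foxf1, a forkhead factor that responds to Hedgehog in gut, lung and ureter mesenchyme, had the clearest order across genotypes. Its counts were 0 and 0 in the KO-labelled libraries, 2 and 0 in the Het-labelled, 8 and 8 in the WT-labelled and 142 and 96 in the SmoM2-labelled libraries. In CPM these are 0.745 and 0.870 in the WT-labelled and 14.5 and 11.1 in the SmoM2-labelled libraries. Both SmoM2-labelled libraries stood far above the other 6, and both WT-labelled libraries stood above the 4 KO- and Het-labelled ones. WT-labelled libraries averaged 0.808 ± 0.0886 CPM and SmoM2-labelled ones 12.8 ± 2.42 CPM (SD, n = 2), a log2 change of 3.97 (SE 0.44). The ratio of summed counts was 16.1, with a 95% exact interval of 9.69 to 28.6 that covers counting error only.

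Foxf2, the close relative of Foxf1, showed the same kind of step at a much lower level. Counts were 0 in the 4 KO- and Het-labelled libraries, 1 in each WT-labelled library, and 19 and 12 under SmoM2. That is 0.0931 and 0.109 CPM in the WT-labelled against 1.94 and 1.39 CPM under SmoM2. The 2 SmoM2-labelled libraries were thus the only ones with more than 1 count. The ratio of summed counts was 16.7, with a wide exact 95% interval of 4.26 to 144 set by the 2 counts of the WT-labelled group. The log2 change was 3.85 (SE 0.82).

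Tshz3, a zinc-finger homeobox factor of the teashirt family, was low in 3 groups and higher in the SmoM2-labelled one. Counts were 3 and 3 in the KO-labelled, 4 and 3 in the Het-labelled, 10 and 5 in the WT-labelled and 44 and 55 in the SmoM2-labelled libraries. The levels in the same order were 0.664 and 0.653, 0.534 and 0.509, 0.931 and 0.544, and 4.49 and 6.35 CPM. The KO-labelled range lay inside the WT-labelled range, so unlike Foxf1 its 4 KO- and Het-labelled libraries were not clearly apart from the WT-labelled ones. The SmoM2-labelled group was at 5.42 ± 1.31 CPM against 0.738 ± 0.274 CPM (SD, n = 2), a log2 change of 2.83 (SE 0.45) and a count ratio of 7.13 (exact 95% interval 4.12 to 13.2).

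Foxf1, Foxf2 and Tshz3 passed the filter on low counts only through their SmoM2-labelled libraries, so a difference between those libraries and the rest was built into their being tested. Of the 7 genes 6 passed it, and 2 of these, Foxf1 and Tshz3, were past the threshold of the fit over all genes, as were 0.223% of all genes, with 0.156% higher. In 6 of the 7 genes, all but Tshz2, the libraries of the compared groups did not overlap, Tbx18 being lower, as in 35.8% of all tested genes. Since this contrast chose the genes, these counts are no test of them and nothing is read from them. Over 16 alternatives the log2 change was 3.76 to 4.15 for Foxf1, 3.51 to 4.07 for Foxf2 and 2.53 to 3.28 for Tshz3. The threshold was missed in 2 of these 16 for Foxf1 and in 7 for Tshz3, and Foxf2 passed it in 1. For the same reason these counts too are no test of the genes.

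**Figure D1:**
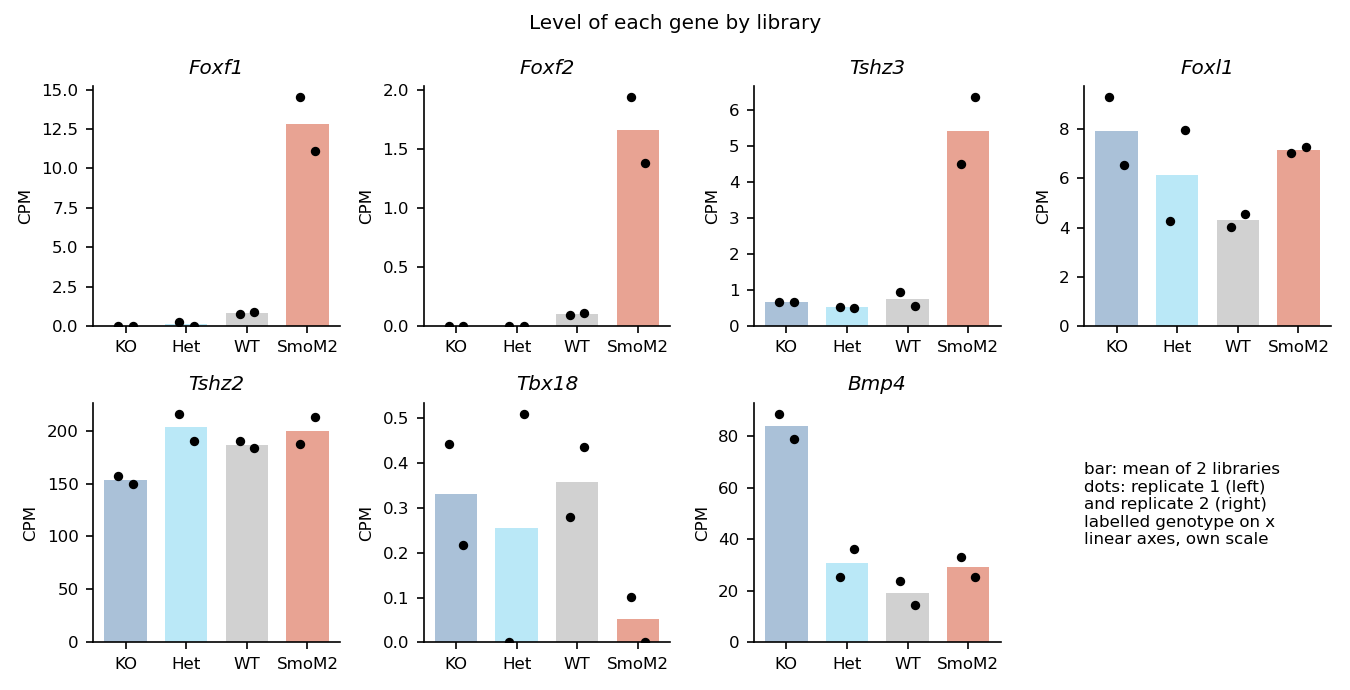
Each panel plots the level of 1 gene in CPM on its own linear axis, with a bar for the mean of 2 libraries and dots for replicate 1 (left) and replicate 2 (right) of each labelled genotype. Foxf1, Foxf2 and Tshz3 stand up in the SmoM2-labelled libraries only, Bmp4 in the KO-labelled libraries, and Tbx18 stays below 0.51 CPM everywhere.

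Foxl1, a forkhead factor of gut mesenchyme that lies near Foxf1, had smaller differences. It was at 9.29 and 6.53 CPM in the KO-labelled, 4.27 and 7.98 in the Het-labelled, 4.0 and 4.57 in the WT-labelled and 7.05 and 7.27 CPM under SmoM2. The WT-labelled group was the lowest, and the KO- and SmoM2-labelled ranges overlapped. Foxl1 was higher by a log2 change of 0.74 (SE 0.33) in SmoM2- against WT-labelled libraries. The change between KO- and WT-labelled libraries, 0.88 (SE 0.35, edgeR adjusted p 0.0900), missed the threshold of 0.05. KO- and Het-labelled libraries overlapped (0.39, SE 0.35, edgeR adjusted p 0.515).

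Tshz2, a teashirt factor related to Tshz3, was strongly expressed in every library. It lay at 157 and 150 CPM in the KO-labelled, 216 and 191 in the Het-labelled, 190 and 183 in the WT-labelled and 187 and 213 CPM under SmoM2. The last 3 groups were close together, and the 2 KO-labelled libraries were the lowest of the 8. The SmoM2- against WT-labelled log2 change was 0.10 (SE 0.12), with overlapping libraries. KO-labelled libraries were lower than Het-labelled ones by a log2 change of -0.41 (SE 0.12, edgeR adjusted p 0.0582). That value missed the threshold, and 4 of 15 alternatives passed it, without WT-labelled replicate 1 among them, with adjusted p between 0.0245 and 0.331.

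Tbx18, the T-box factor that defines ureteral mesenchyme, was barely detected. Its counts were 2 and 1 in the KO-labelled, 0 and 3 in the Het-labelled, 3 and 4 in the WT-labelled and 1 and 0 in the SmoM2-labelled libraries. No library went above 4 counts, and the SmoM2-labelled libraries had the fewest. Tbx18 did not pass the filter on low counts. The SmoM2- to WT-labelled ratio of summed counts was 0.154, with an exact 95% interval of 0.00342 to 1.20 that includes no difference.

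Bmp4, the secreted growth factor that drives smooth muscle formation around the ureter, was highest in the KO-labelled libraries. It was at 88.7 and 79.0 CPM in the KO-labelled, 25.4 and 36.1 in the Het-labelled, 24.0 and 14.7 in the WT-labelled and 33.3 and 25.3 CPM in the SmoM2-labelled libraries. Both KO-labelled libraries were above all 6 others by a wide margin, and the Het- and SmoM2-labelled ranges overlapped. The group means were 83.8 ± 6.90, 30.8 ± 7.62, 19.4 ± 6.60 and 29.3 ± 5.67 CPM (SD, n = 2) in the same order.

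Bmp4 rose in KO- against WT-labelled libraries by a log2 change of 2.11 (SE 0.24, edgeR adjusted p 0.000304), a 4.31-fold change. It also rose in KO- against Het-labelled libraries by 1.45 (SE 0.24, edgeR adjusted p 0.00745). Neither of these 2 groups was in the contrast that chose the genes. The fit took its spread from all 8 libraries, however, and other results of these data were known when the genes were chosen. Across all genes 23.0% were called in the first of these comparisons. In the second, 9.43% were called and 4.33% were called higher, and Bmp4 was the 1 gene called of the 6 tested. Between KO- and Het-labelled libraries 3 of 6 tested genes did not overlap, beside 56.9% of all tested genes. The first call held in all 16 alternatives. The second was lost without Het-labelled replicate 1 (log2 change 1.22, edgeR adjusted p 0.0942). Het-labelled libraries were above WT-labelled ones by 0.65 (SE 0.24, edgeR adjusted p 0.0696), which was not called but passed in 4 of 15 alternatives, without WT-labelled replicate 1 among them (1.08, edgeR adjusted p 0.0147). Under active Smo, Bmp4 differed from the WT-labelled level by 0.59 (SE 0.24).

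In the KO-labelled libraries, some genes of committed nephron cells were also higher. This list of 8 genes, added after the data were seen, includes Lhx1 and Pax8, factors of the renal vesicle and early tubule. Its summed level was 949 to 1088 CPM in the KO-labelled, 507 to 678 in the Het-labelled, 436 to 564 in the WT-labelled and 388 to 499 CPM in the SmoM2-labelled libraries. Of 7 tested, 4 were called higher in KO- against WT-labelled and 2 (Lhx1 and Pax8) in KO- against Het-labelled libraries, beside 23.0% and 9.43% of all genes called in either direction. Lhx1 was at 62.2 and 122 CPM in the KO-labelled and 4.67 and 9.33 CPM in the Het-labelled libraries. The part of such cells in the Bmp4 result was not tested. In bulk RNA, more cells of a type and more RNA per cell cannot be told apart.

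**Figure D2:**
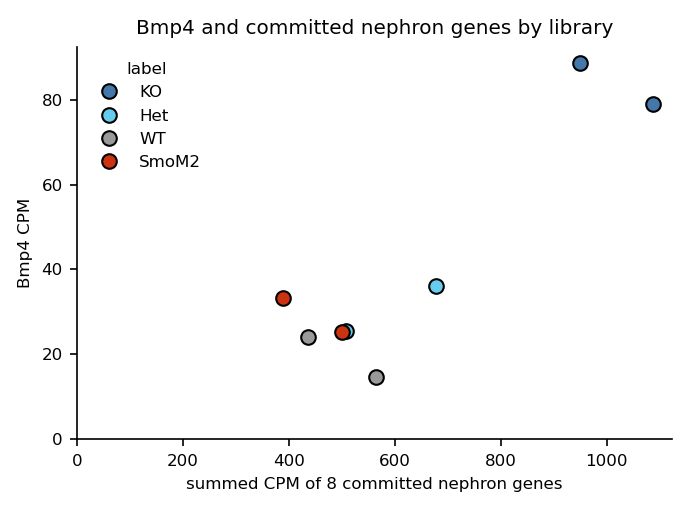
The level of Bmp4 in CPM is plotted against the summed CPM of 8 genes of committed nephron cells, with 1 dot per library coloured by labelled genotype. The 2 KO-labelled libraries stand apart on both axes, while the 6 others lie between 388 and 678 CPM on the first and between 14.7 and 36.1 CPM on the second.

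Foxf1 was the other gene called in KO- against WT-labelled libraries, where 2 of 6 tested genes were called and 5 of 6 did not overlap, beside 62.0% of all tested genes. With 0 counts in both KO-labelled libraries, the depth allows up to 0.664 and 0.653 CPM there, at 3 counts per library. Foxf1 was therefore at least 1.23-fold lower than in the WT-labelled libraries (edgeR adjusted p 0.0306). The call was lost in 5 of 16 alternatives, among them the fits without KO-labelled replicate 1, KO-labelled replicate 2, WT-labelled replicate 1 or WT-labelled replicate 2, with adjusted p from 0.00404 to 0.121. For Foxf2 the WT-labelled level was itself below that limit, so a fall was not detectable at this depth. Tshz3 changed by -0.18 (SE 0.67, edgeR adjusted p 0.866), and its sign turned without WT-labelled replicate 1 (0.25).

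No gene of the 7 was called by edgeR between Het- and WT-labelled libraries, against 25.3% of all genes, and 5 of 6 did not overlap, beside 66.9% of all genes. By unadjusted p under 0.05 there were 2, DESeq2 called 1 (Bmp4) and limma-voom called 0. Foxf1 had 2 counts over the Het-labelled group and 16 over the WT-labelled group, a ratio of 0.186 with an exact 95% interval of 0.0208 to 0.792 for counting error. The fitted value was -2.31 on the log2 scale (SE 0.87, edgeR adjusted p 0.0748). These comparisons share the WT-labelled libraries with that of SmoM2- and WT-labelled libraries, so they are not independent of it.

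**Figure D3:**
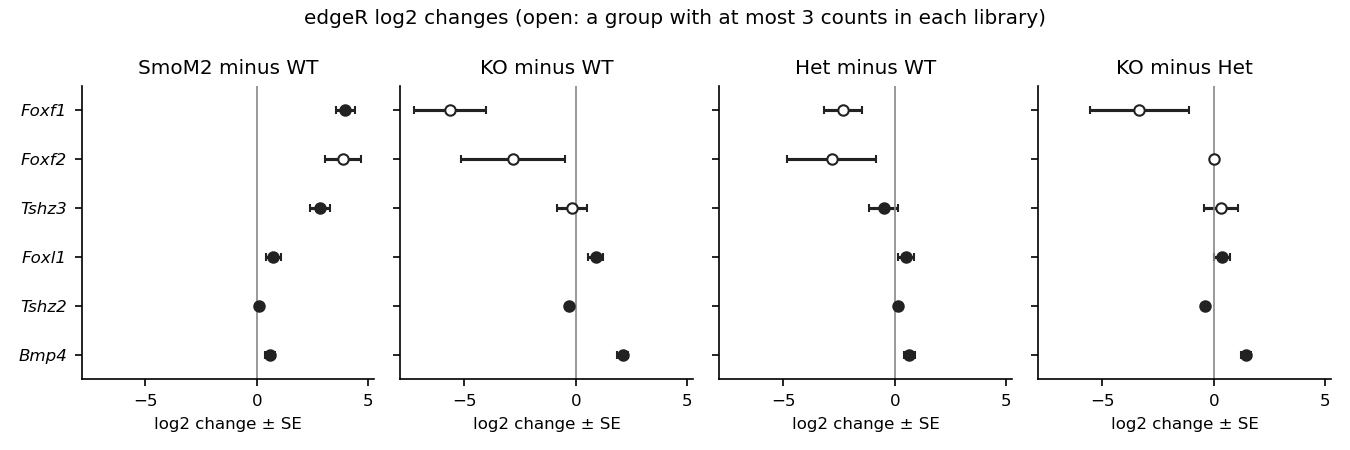
Points show the edgeR log2 change of 6 tested genes in 4 comparisons, with bars of 1 SE on a common axis, and open points mark genes that have 3 counts or fewer in both libraries of a compared group, whose fitted value depends on the prior count. In SmoM2 minus WT the values of Foxf1, Foxf2 and Tshz3 are between 2.83 and 3.97, while Bmp4 has its largest value, 2.11, in KO minus WT.

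Per kilobase of gene length, the genes remained far apart even where active Smo was present. In the authors' RPKM values (counts scaled to gene length and library size), the SmoM2-labelled means were 31.2 ± 2.72 for Tshz2, 11.4 ± 2.23 for Bmp4 and 4.22 ± 0.809 for Foxf1 (SD, n = 2). Foxl1 was at 1.93 ± 0.0375, Tshz3 at 0.866 ± 0.207, Foxf2 at 0.562 ± 0.134 and Tbx18 at 0.00874 ± 0.0124 RPKM. Neighbours in this order did not overlap, and the closest were Tshz3 at 0.720 and 1.01 RPKM and Foxf2 at 0.657 and 0.467 RPKM. In the WT-labelled libraries Foxf1 was at 0.273 ± 0.0171 RPKM and ranked below Foxl1 at 1.19 ± 0.0546 RPKM.

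The place of Foxf1 and Foxf2 among other forkhead genes was examined next. Fendrr is a long non-coding RNA gene whose nearest annotated base lies 1.28 kb before the start of Foxf1. Its counts were 0 and 0 in the KO-labelled, 1 and 1 in the Het-labelled, 5 and 1 in the WT-labelled and 35 and 18 in the SmoM2-labelled libraries. Both SmoM2-labelled libraries were above all others, as for Foxf1, with a log2 change of 3.18 (SE 0.67, edgeR adjusted p 0.125) that was not called. Fendrr was kept by the filter on low counts only through its SmoM2-labelled libraries, so a difference was built into its being tested. With no filter on low counts, where 356 genes in place of 30 were called, Fendrr passed (edgeR adjusted p 0.00231). The strand setting of the counting is not given in the sources used here, although the 2 annotated genes do not overlap.

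The next genes on the other side were not called. Mthfsd, 3.47 kb after Foxf1, changed by -0.27 (SE 0.14, edgeR adjusted p 0.730). Foxc2, 28.0 kb after Foxf1 and between it and Foxl1, changed by -0.28 (SE 0.14, edgeR adjusted p 0.722) from 179 to 147 CPM. In the Foxf2 cluster, Foxc1 lies 175 kb beyond Foxf2 and changed by 0.37 (SE 0.15, edgeR adjusted p 0.572) from 634 to 817 CPM. Foxq1, 64.8 kb before Foxf2, had at most 4 counts in any library and was not tested. Foxc1 fell in KO- against WT-labelled libraries by 1.36 on the log2 scale (SE 0.15, edgeR adjusted p 0.000267).

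**Figure D4:**
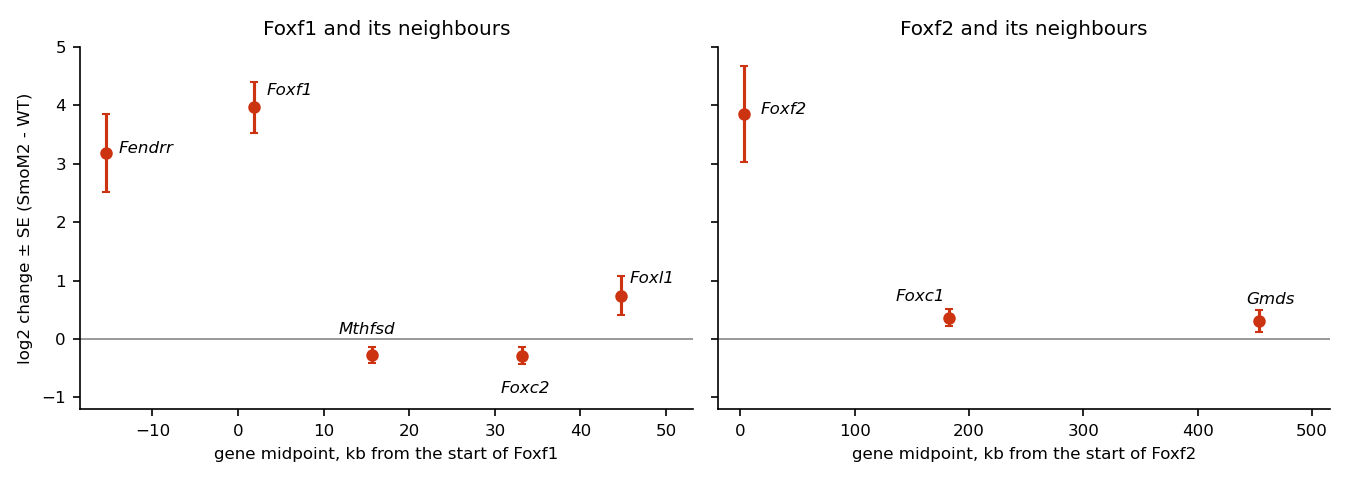
The log2 change between SmoM2- and WT-labelled libraries, with bars of 1 SE, is plotted for genes of the Foxf1 cluster (left) and the Foxf2 cluster (right) against the distance of the gene's midpoint from the start of Foxf1 or Foxf2 in kb. Fendrr (3.18) and Foxf1 (3.97) stand above Mthfsd (-0.27), Foxc2 (-0.28) and Foxl1 (0.74), and Foxf2 (3.85) above Foxc1 (0.37) and Gmds (0.31).

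Beside Bmp4, the non-coding RNA gene Rubie, 178 kb after it in coordinate order, had 7 and 19 counts in the KO-labelled and 9 and 7 in the WT-labelled libraries. Its log2 change was 1.81 (edgeR adjusted p 0.0452), and the call was lost in 11 of 16 alternatives, with a change of 0.94 without KO-labelled replicate 2. Gm15217, which overlaps the end of Bmp4 by a few bases, had at most 4 counts in any library.

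Other genes of the Hedgehog pathway gave the context. Of 14, the 3 ligand genes Shh, Ihh and Dhh had at most 13 counts in any library and were not tested. Of the 11 tested, 3 were called higher and none lower in SmoM2- against WT-labelled libraries, where 0.223% of all genes were called. The 3 were the feedback receptor Ptch1, the ligand-binding antagonist Hhip and the effector Gli1. Gli1 lost its call without any 1 of the 4 compared libraries (edgeR adjusted p 0.0710 to 0.197), and Gli2 passed with no filter on low counts (1.04, edgeR adjusted p 0.00438). The median log2 change of the 11 was 0.32, and that of all tested genes was 0.00. Hhip rose most, from 3.17 and 5.44 CPM to 62.3 and 77.7 CPM, a log2 change of 4.03 (SE 0.27, edgeR adjusted p 8.5e-05) of similar size to that of Foxf1. For Ptch1, levels were 51.3 and 54.6 CPM (KO-labelled), 75.5 and 76.9 CPM (Het-labelled), 155 and 168 CPM (WT-labelled) and 377 and 354 CPM (SmoM2-labelled). In KO- against WT-labelled libraries 5 were called lower (Ptch1, Hhip, Smo, Gli1 and Gli2) and 2 higher, the co-receptors Gas1 and Cdon. Smo is itself the gene made conditional in the KO- and Het-labelled groups. Across all genes 23.0% were called between KO- and WT-labelled libraries. The call of Hhip there was lost without KO-labelled replicate 1 or WT-labelled replicate 2 (log2 change -0.96 in each), with limma-voom (adjusted p 0.122) and with only the 4 libraries compared (edgeR adjusted p 0.0793). In Het- against WT-labelled libraries, where 25.3% of all genes were called, the same 5 were called lower. Gas1, Cdon and the co-receptor Boc were called higher there. Hhip was at 0.401 and 0.339 CPM in the Het-labelled libraries.

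Other regulators of ureteral mesenchyme were mostly not called under active Smo. Of 9 tested, Sox9, a factor of ureteral and other progenitors, was the 1 called, with 22.6 and 22.5 CPM in the WT-labelled and 42.5 and 57.6 CPM in the SmoM2-labelled libraries (log2 change 1.15, SE 0.20, edgeR adjusted p 0.0452). Sox9 lost its call in 11 of 16 alternatives, among them leaving out any 1 of the 8 libraries, with adjusted p up to 0.327. The median of the 9 was -0.016. In KO- against WT-labelled libraries 3 of the 9 were called, Tcf21 higher and Tshz1 and Rarb lower, beside 23.0% of all genes. Among 8 other factors of Hedgehog-responsive mesenchyme, such as Hand2, Barx1 and Nkx3-2, 4 were too low to be tested. None of the 4 tested was called by edgeR, DESeq2 or limma-voom in SmoM2- against WT-labelled libraries, with 1 at an unadjusted p under 0.05.

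Smooth muscle genes differed in direction under active Smo. Of 15 genes 12 were tested, and none was called by edgeR, DESeq2 or limma-voom in SmoM2- against WT-labelled libraries, although 5 had an unadjusted p under 0.05, as did 7.70% of all tested genes. Those 5 were Acta2, Smtn and Tagln, which were lower, and Synpo2 and Tpm2, which were higher. The median log2 change of the 12 was -0.50. Synpo2, an actin-binding protein gene, had 7 and 5 counts in the WT-labelled and 42 and 28 in the SmoM2-labelled libraries (log2 change 2.62, SE 0.49, edgeR adjusted p 0.0765), beside a log2 change of 2.83 for Tshz3. Synpo2 was kept by the filter only with its SmoM2-labelled libraries, so a difference was built into its being tested. Synpo2 passed with no filter on low counts (edgeR adjusted p 0.00092). Myocd, the coactivator that starts smooth muscle differentiation, had 5 and 6 counts in the WT-labelled and 4 and 0 in the SmoM2-labelled libraries. Acta2, smooth muscle actin, was at 9.50 and 7.94 CPM in the WT-labelled and 4.70 and 4.04 CPM in the SmoM2-labelled libraries (log2 change -0.99, SE 0.40, edgeR adjusted p 0.571), and passed with no filter on low counts (edgeR adjusted p 0.0362). It rose in the KO-labelled libraries, to 31.6 and 16.1 CPM (log2 change 1.45 against WT, SE 0.37, edgeR adjusted p 0.0179). That call was lost without KO-labelled replicate 1 (0.88) or WT-labelled replicate 2 (1.30). The list went both ways between these 2 groups, with 5 of the 12 called. Srf and Smtn were higher like Acta2, while Des and Cald1 were lower, and 23.0% of all genes were called. The median of the 12 was 0.24 on the log2 scale there, beside 0.03 for all tested genes.

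The BMP pathway around Bmp4 was read through 29 genes, of which 26 were tested. In KO- against WT-labelled libraries 4 rose and 11 fell, beside 23.0% of all genes called in either direction. The median log2 change was -0.35 beside 0.03 for all tested genes. The 4 that rose were the ligand Bmp2, the receptor-like inhibitor Bambi and the BMP target genes Id1 and Id3. Id1 went from 39.7 and 55.4 CPM to 141 and 218 CPM (log2 change 1.92, SE 0.35, edgeR adjusted p 0.00337). Those that fell included receptors (Bmpr1a, Bmpr2, Acvr1), Smad genes (Smad4, Smad5, Smad9) and the secreted inhibitors Nog and Bmper. Nog lost its call without KO-labelled replicate 1 (edgeR adjusted p 0.0652). Bmper fell from 252 and 203 CPM to 37.4 and 65.7 CPM (log2 change -2.14, SE 0.23, edgeR adjusted p 0.000253). In Het- against WT-labelled libraries, where 25.3% of all genes were called, Id1 and Id3 were also called higher and 8 of these 11 lower. Bmper was among the 8, at 69.3 and 72.5 CPM in the Het-labelled libraries. The median log2 change there was -0.31. Those calls of Id1, Id3 and Nog were each lost in some alternatives. Compared with Het-labelled libraries, the KO-labelled ones had Bambi called higher (log2 change 0.92, SE 0.25, edgeR adjusted p 0.0419) and Acvr2b lower. Bambi lost that call in 6 of 15 alternatives, with a change of 0.64 without KO-labelled replicate 2. Without any 1 of the KO-, Het- or SmoM2-labelled libraries its adjusted p was 0.0546 to 0.215. Between SmoM2- and WT-labelled libraries none of the 26 was called by edgeR, DESeq2 or limma-voom, with 7 at an unadjusted p under 0.05, beside 7.70% of all tested genes. With no filter on low counts Id1 (0.51, edgeR adjusted p 0.0472) and Bmper (-0.50, edgeR adjusted p 0.0332) passed.

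Markers of cells other than nephron progenitors were measured beside these results. In the SmoM2- and WT-labelled libraries respectively, 11 genes of interstitial stroma summed to 921 to 1002 and 690 to 795 CPM. Of 10 tested, none was called by edgeR, DESeq2 or limma-voom, and 2 had an unadjusted p under 0.05. Foxd1, which defines the stroma, was at 384 and 300 CPM against 196 and 171 CPM (log2 change 0.90, SE 0.27, edgeR adjusted p 0.323). Foxd1 passed with no filter on low counts (0.90, edgeR adjusted p 1.76e-07). Both of its SmoM2-labelled libraries were above both WT-labelled ones, beside 35.8% of all tested genes that did not overlap in either direction. The median log2 change of the 10 tested stromal genes was 0.12. The 10 genes of ureteric bud and collecting duct summed to 61.0 to 73.7 against 40.1 to 41.3 CPM, with Wnt7b and Aqp2 at 0 in the SmoM2-labelled libraries, and Wnt11 called higher. The 7 urothelial genes summed to 2.96 to 3.23 against 3.07 to 3.59 CPM, and Upk3a was at 0 in the SmoM2-labelled libraries. In both KO- and Het- against WT-labelled libraries, Foxd1 was called lower and Meis1, another stromal gene, higher. No other stromal gene was called there, beside 23.0% and 25.3% of all genes. The part of stroma, duct or ureteral mesenchyme cells in the levels of Foxf1, Foxf2 and Tshz3 was not tested.

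The patterns most like those of the 7 genes were sought by Pearson's r of log2 CPM over the 8 libraries, among 12458 genes of average log2 CPM of at least 1. These values describe likeness only, since the libraries fall into genotype groups and share depth within them. For Foxf2 the nearest were Foxf1 (0.974), the potassium channel gene Kcnj15 (0.968) and Tshz3 (0.967). For Foxf1 they were Mical2 (0.982), Ambra1 (0.980) and Trim24 (0.977), each highest in both SmoM2-labelled libraries. Mical2 was at 49.7, 58.1, 71.5 and 115 CPM on average from KO- to SmoM2-labelled libraries. Tshz3 was nearest to Btg1 (0.962), Bag2 (0.957) and Ssx2ip (0.934).

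The other genes had different neighbours in pattern. Bmp4 was nearest to Ggnbp2os (0.986), Zfp775 (0.980) and Med17 (0.961), which were highest on average in the KO-labelled libraries. Zfp775 was at 19.6 CPM there and at 10.1 CPM in the WT-labelled libraries. Foxl1 was nearest to 0610038B21Rik (0.921), Tspan5 (0.916) and Nfkbil1 (0.912), and Tshz2 to Dact3 (0.959), St6galnac4 (0.947) and Phf20 (0.947).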

How the data were processed

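Polyadenylated RNA from sorted cells was sequenced, per the labels' protocols. The deposited table holds raw read counts per gene, and the authors' RPKM values, per the file headers. The submitters' processing notes name STAR, featureCounts of Subread and mm10. Versions, strand setting and annotation are not given in the sources used here. RPKM values served only to compare genes and as an alternative scale.

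Counts were tested with edgeR 4.0.16 (R 4.3.3). Genes were kept by filterByExpr (13459 of 24539), scaled by TMM and fitted with a quasi-likelihood model over 4 groups and all 8 libraries. P-values are two-sided and Benjamini-Hochberg adjusted over all tested genes, at 0.05. An exact permutation test of 2 against 2 libraries cannot reach that, and none was run. Log2 CPM used a prior count of 2. Floors are 3 counts per library and cover counting error only, since no molecular identifiers are mentioned. The model was tested on simulated data. No 2 libraries agreed within sampling noise. Alternatives were DESeq2 1.42.0, limma-voom (limma 3.58.1), other scalings, no filter, 4 libraries only, a replicate block and leaving out libraries.

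The genes, lists and tests were chosen with earlier results of these data known. The committed nephron list was added last. Some genes of the lists are not reported here and were left out of the list counts and sums. Named are the 7 genes, members of the lists, the 3 genes most like each tested gene in pattern, and the nearest 2 genes on each side in RefSeq.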

Additional observations from a re-analysis of the deposited data

How the results depend on the processing

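The number of genes past the threshold between SmoM2- and WT-labelled libraries was 30, and it became 82 with DESeq2, 356 with no filter on low counts, 10 with only the 4 libraries compared and 54 with the replicate block. Leaving out 1 library gave 5 (without WT-labelled replicate 1) to 65 (without WT-labelled replicate 2). Between KO- and WT-labelled libraries 3100 genes became 1331 to 2953 when 1 library was left out, the fewest without KO-labelled replicate 1. Between Het- and WT-labelled libraries 3402 became 1407 to 3621, the fewest without Het-labelled replicate 2. Between KO- and Het-labelled libraries 1269 became 2217 with no filter and 4 (without Het-labelled replicate 1) to 1483. Small depth limits Foxf2, Tbx18 and, outside the SmoM2-labelled group, Foxf1 and Tshz3. The cause of these shifts was not tested.

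The replicate numbers were not taken to pair the libraries, since the correlations of replicate differences between groups ran from -0.0606 to 0.391 and only 1 of 6 was over 0.1. That 1 was between WT- and SmoM2-labelled libraries, where replicate 1 is male and replicate 2 female in both groups, so the numbers there coincide with sex. With the replicate block, Bmp4 passed between Het- and WT-labelled libraries (0.68, edgeR adjusted p 0.0478), and 3342, 3685 and 1527 genes passed between KO- and WT-, Het- and WT-, and KO- and Het-labelled libraries.

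Some log2 changes turned in sign, and each value that follows is a log2 change. Between SmoM2- and WT-labelled libraries, Tcf21 was 0.036 with limma-voom and 0.00231 with the replicate block. Leaving out 1 library gave -0.38 to 0.53 for Tcf21, -0.47 to 0.13 for Bambi, -0.15 to 0.96 for Id1, -0.039 to 0.71 for Id3 and -0.064 to 0.49 for Nog. Between KO- and WT-labelled libraries it gave -0.52 to 0.25 for Tshz3 and -0.43 to 0.12 for Synpo2, which was 0.000623 with limma-voom. Between Het- and WT-labelled libraries it gave -0.018 to 0.86 for Foxl1, -0.00235 to 0.19 for Tshz2, -1.55 to 0.42 for Fendrr and -0.88 to 0.28 for Acta2. Between KO- and Het-labelled libraries it gave -0.00972 to 0.87 for Foxl1, -0.29 to 0.78 for Gli1, -0.018 to 1.39 for Rubie and -0.15 to 0.088 for Mthfsd. With library totals taken from RPKM, Foxc2 was 0.028 and Mthfsd 0.047 in that comparison. None of these reversals was in a change that had passed the threshold. Leaving out both Het-labelled libraries was an alternative chosen after seeing the data, and it gave 28 genes for SmoM2 and 2661 for KO against WT-labelled libraries.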
